A study of Sus scrofa with 6 samples.

Results

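Glucocorticoid and stress-axis genes were examined in the brain transcriptomes of Rongchang pigs, a domesticated Chinese breed, and wild boars. The set comprised 10 listed genes for the receptors of glucocorticoids and of corticotropin-releasing hormone (CRH), the enzymes that convert glucocorticoids, and genes that glucocorticoids induce. Through a table pairing Ensembl pig identifiers with symbols, 7 of the 10 had a row among the 18225 genes of the deposited table: NR3C1, HSD11B1, HSD11B2, FKBP5, SGK1, CRHR1 and CRHBP. NR3C2, CRHR2 and TSC22D3 had no matched row and were not analysed here. The groups were 3 Rongchang pigs and 3 wild boars, all 210 days old, with 1 poly(A)-selected, strand-marked library per animal; the labels state no sex, treatment or housing and name the tissue as brain without a region. The series title asks about immune differences between the domesticated and the wild animals, and a stress-axis question is not stated in it. Values are FPKM, that is, fragments relative to transcript length and to all mapped fragments, so that levels can be compared between genes. Differences are Rongchang minus wild boar in log2(FPKM + 1), a scale on which low genes appear to change less than they do.

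As background, cortisol, the main glucocorticoid of pigs, is released at the end of the hypothalamic-pituitary-adrenal axis, in which hypothalamic CRH drives pituitary corticotropin and this drives the adrenal cortex. In brain cells cortisol binds the glucocorticoid receptor, held in the cytoplasm by heat-shock chaperones until hormone binding, after which it enters the nucleus and changes transcription. Enzymes inside the cell set how much active hormone reaches the receptor, and the induced gene FKBP5 encodes a co-chaperone that lowers the receptor's affinity for the hormone, closing a feedback loop.

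Neuronal and glial markers were abundant in every library and those of the pituitary were not. The 7 neuronal markers matched summed to 1843 to 2573 FPKM in Rongchang pigs and 1754 to 2444 FPKM in wild boars, and the 6 astrocyte markers to 1787 to 1970 FPKM in Rongchang pigs and 1544 to 1922 FPKM in wild boars. The 5 neocortical markers matched summed to 50.3 to 81.4 FPKM in Rongchang pigs and 44.6 to 87.0 FPKM in wild boars. Of the 4 pituitary markers matched, 3 stayed under 1 FPKM in every library, and the sum was 0.273 to 1.21 FPKM in Rongchang pigs and 0.233 to 0.395 FPKM in wild boars. The 6 hypothalamic markers matched summed to 21.5 to 46.9 FPKM in Rongchang pigs and 17.9 to 18.1 FPKM in wild boars, and the 5 hippocampal markers to 50.6 to 55.1 FPKM in Rongchang pigs and 38.2 to 43.8 FPKM in wild boars. Both sums were higher in every Rongchang pig than in every wild boar, and their part in the breed differences given here was not tested. Most of the hippocampal sum was FAM163B, at 41.9, 45.5 and 42.4 FPKM in Rongchang pigs against 32.1, 39.0 and 35.3 FPKM in wild boars. C1QL2 and NEUROD1 were also higher in every Rongchang pig than in every wild boar, whereas PROX1 and ZBTB20 overlapped between the breeds. Most of the hypothalamic sum was CARTPT, which stood at 20.7, 27.4 and 40.5 FPKM in Rongchang pigs against 16.0, 17.3 and 15.7 FPKM in wild boars, whereas 4 of the 6 markers stayed under 1 FPKM in every library. AVP reached 5.59 FPKM in Rongchang pig 3 and 1.83 FPKM in wild boar 3. In whole tissue, fewer cells of a type and less RNA per cell cannot be told apart.

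Across both breeds the 7 genes spanned a wide range of levels. SGK1 was the highest, at a mean of 21.4 FPKM over the 6 libraries, above 79.4% of the genes tested. It was followed by CRHBP at 15.4 FPKM, HSD11B1 at 12.8 FPKM, FKBP5 at 8.59 FPKM, NR3C1 at 5.58 FPKM, CRHR1 at 1.49 FPKM and HSD11B2 at 0.0339 FPKM. SGK1 exceeded CRHBP in 6 of 6 libraries, NR3C1 exceeded CRHR1 in 6 of 6, and CRHR1 exceeded HSD11B2 in 6 of 6. The order of the neighbours in between was less firm. CRHBP exceeded HSD11B1 in 4 of 6 libraries, HSD11B1 exceeded FKBP5 in 4 of 6, and FKBP5 exceeded NR3C1 in 4 of 6.

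**Figure D1:**
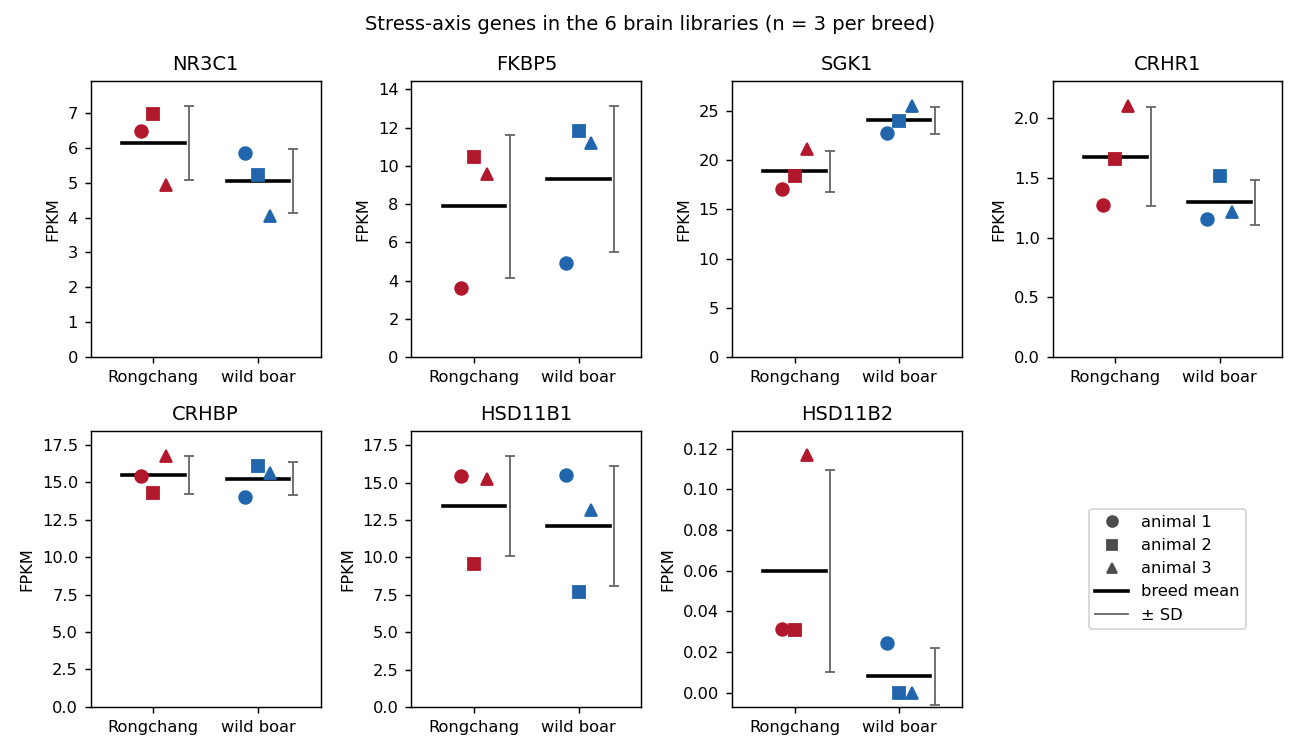
FPKM of the 7 stress-axis genes in each brain library, with Rongchang pigs on the left and wild boars on the right of each panel; marker shapes give the animal number, black bars the breed mean and grey bars ± SD (n = 3 per breed). SGK1 lies between 17.0 and 21.1 FPKM in Rongchang pigs and between 22.7 and 25.5 FPKM in wild boars, whereas FKBP5 is lowest in the animal numbered 1 of each breed.

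No stress-axis gene differed between the breeds past the threshold. With limma and Benjamini-Hochberg adjustment over the 13152 genes that reached 1 FPKM in 3 or more libraries, 0 of the 6 members tested passed an adjusted p of 0.05, where 1 gene of the whole table (0.0076%) did. HSD11B2 lay below that minimum and was not in the fit. At an unadjusted p under 0.05 there were likewise 0 of 6 members in limma, against 789 genes (6%) overall. After median scaling 1 of the 6, SGK1, was under that mark (unadjusted p = 0.00662 in limma), against 494 genes (3.76%), and its adjusted p was then 0.9999. Adjusted p for the 6 members ranged from 0.789 to 0.978. Of the 6, 4 had differences above 0 and 2 below, with a median of 0.09. Over all genes tested the median was 0.13 and 77.9% lay above 0. Scaling the libraries to a common median moves this all-gene median to −0.02, so each member tested is also given relative to the median gene.

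The receptor that carries the glucocorticoid signal had the higher mean in Rongchang pigs. NR3C1, the glucocorticoid receptor, stood at 6.48, 6.97 and 4.93 FPKM in Rongchang pigs 1, 2 and 3, against 5.84, 5.23 and 4.04 FPKM in wild boars 1, 2 and 3. The ranges overlapped, with Rongchang pig 3 below wild boars 1 and 2, and the animal numbered 3 was the lowest of its breed in both. The means were 6.13 ± 1.06 FPKM in Rongchang pigs and 5.04 ± 0.916 FPKM in wild boars (SD, n = 3 each), with a log2 difference of 0.24 (SE 0.18, 95% interval −0.18 to 0.66, limma adjusted p = 0.848), or 0.11 relative to the median gene.

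The enzymes that convert glucocorticoids were at very unequal levels. HSD11B1, which in most tissues regenerates active cortisol from cortisone, stood at 15.5, 9.56 and 15.3 FPKM in Rongchang pigs, against 15.5, 7.66 and 13.2 FPKM in wild boars. The breeds overlapped, and the animal numbered 2 was the lowest in each. The means were 13.4 ± 3.36 FPKM in Rongchang pigs and 12.1 ± 4.03 FPKM in wild boars (SD, n = 3 each), with a log2 difference of 0.16 (SE 0.28, 95% interval −0.48 to 0.80, limma adjusted p = 0.909). Relative to the median gene this difference was 0.03, and after median scaling it was below 0, at −0.0015.

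HSD11B2, which inactivates cortisol to cortisone, was close to 0 everywhere. It stood at 0.0312, 0.0308 and 0.117 FPKM in Rongchang pigs, against 0.0242 FPKM in wild boar 1 and listed values of 0 in the other 2 wild boars. The libraries of the breeds did not overlap, Rongchang being higher. The same held for 1501 of the genes tested (11.4%), a set at higher levels that leaves HSD11B2 out. An exact two-sided permutation test of the log2 values gave p = 0.1, the smallest that 3 against 3 animals allow. The depth behind FPKM values is unknown, and no firm level can be set from values this near to 0.

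The induced targets had their higher means in wild boars, in the direction opposite to NR3C1, and neither passed the threshold. SGK1, a kinase induced by glucocorticoids and mineralocorticoids that acts on ion channels and transporters, stood at 17.0, 18.4 and 21.1 FPKM in Rongchang pigs, against 22.7, 23.9 and 25.5 FPKM in wild boars. It was the 1 member tested whose breeds did not overlap, every Rongchang pig lying below every wild boar. Among all genes tested, 147 (1.12%) had that separation with Rongchang lower and 1501 (11.4%) with Rongchang higher. After median scaling these were 661 (5.03%) and 509 (3.87%), and SGK1 kept the separation, while CRHBP gained it, also with Rongchang lower. The means were 18.8 ± 2.09 FPKM in Rongchang pigs and 24.0 ± 1.36 FPKM in wild boars (SD, n = 3 each), with a log2 difference of −0.34 (SE 0.15, 95% interval −0.69 to 0.0052, limma unadjusted p = 0.0528, adjusted p = 0.789), or −0.47 relative to the median gene. Of the 13152 genes tested, 252 (1.92%) had a lower difference. The 3 endothelial markers matched, out of 6 listed, lay apart by breed in their sum, at 18.2 to 23.4 FPKM in Rongchang pigs and 26.7 to 27.9 FPKM in wild boars. Singly, each of the 3 overlapped between the breeds. PECAM1 lay at 5.85 to 9.01 FPKM in Rongchang pigs and 7.15 to 11.3 FPKM in wild boars. TIE1 lay at 6.26 to 6.76 against 6.42 to 10.5 FPKM, and FLT1 at 6.13 to 9.69 against 7.80 to 11.4 FPKM. The hippocampal and hypothalamic sums lay apart the other way, and the part of these sums in the SGK1 values was not tested.

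FKBP5, the co-chaperone that feeds back on the receptor, varied more between animals than between breeds. It stood at 3.61, 10.5 and 9.59 FPKM in Rongchang pigs, against 4.90, 11.8 and 11.2 FPKM in wild boars. The animal numbered 1 was low in each breed and the other 4 lay close together, from 9.59 to 11.8 FPKM. The means were 7.88 ± 3.73 FPKM in Rongchang pigs and 9.30 ± 3.82 FPKM in wild boars (SD, n = 3 each). The log2 difference was −0.24 (SE 0.41, 95% interval −1.19 to 0.71, limma adjusted p = 0.908), or −0.37 relative to the median gene, and 465 genes (3.54%) had a lower difference. Without Rongchang pig 1 the difference had the other sign, at 0.18, whereas without both animals numbered 1 it was −0.18. The breed interval of FKBP5 was the widest of the 6 members tested.

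**Figure D2:**
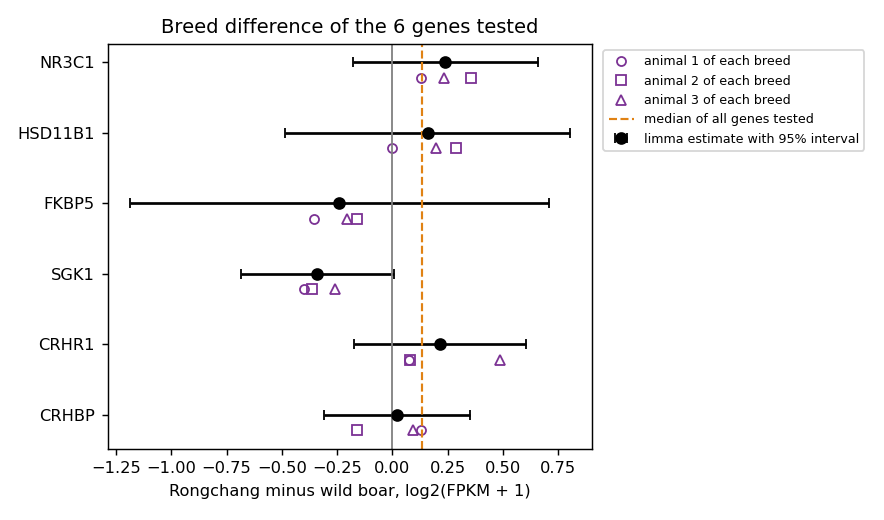
Rongchang minus wild boar in log2(FPKM + 1) for the 6 stress-axis genes tested; black points are limma estimates with 95% intervals, open markers the difference between the animals that share a number, and the dashed line the median of all genes tested at 0.13. Every interval includes 0, that of SGK1 reaching 0.0052.

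The genes of CRH reception overlapped between the breeds. CRHR1, the CRH receptor that in the pituitary drives corticotropin release and that is also present in the forebrain, stood at 1.28, 1.66 and 2.10 FPKM in Rongchang pigs, against 1.16, 1.51 and 1.21 FPKM in wild boars. Rongchang pig 3 was the highest and the ranges overlapped. The log2 difference was 0.21 (SE 0.17, 95% interval −0.17 to 0.60, limma adjusted p = 0.850), or 0.08 relative to the median gene. CRHBP, a secreted protein that binds CRH and limits its action, was the steadiest member, at 15.4, 14.3 and 16.8 FPKM in Rongchang pigs against 14.0, 16.1 and 15.6 FPKM in wild boars. Its coefficient of variation over the 6 libraries was 6.91%. The log2 difference was 0.02 (SE 0.14, 95% interval −0.31 to 0.35, limma adjusted p = 0.978), or −0.11 relative to the median gene, and −0.14 after median scaling. The ligand CRH, no member and named after its values were seen, stood at 9.03, 9.01 and 7.81 FPKM in Rongchang pigs against 7.25, 10.9 and 8.90 FPKM in wild boars (log2 difference −0.04, limma adjusted p = 0.959), a difference that changed sign under some alternatives, such as library weights at 0.052.

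The animal number ran through several of these genes in both breeds. The labels number the animals 1 to 3 in each breed without saying what a number marks. Averaged over both breeds, FKBP5 stood at 4.25 FPKM in the animals numbered 1 and 10.8 FPKM in the other 4, a ratio of 0.395 and a log2 difference of −1.17. Its SD between the 3 numbers was 0.68 log2 units, larger than that of 98.2% of the genes tested, while its SD between same-numbered animals of the 2 breeds was 0.18. The first SD is taken over means of both breeds. The second is of single animals and includes the breed difference, so the 2 are not like measures. HSD11B1 stood at 8.61 FPKM in the animals numbered 2 and 14.9 FPKM in the other 4 (ratio 0.58), with an SD between numbers larger than that of 91.1% of genes. NR3C1 stood at 4.49 FPKM in the animals numbered 3, both of which lay below the other 4 animals. For SGK1 the order was the reverse, with an SD of 0.11 between numbers and 0.24 between same-numbered animals. The same order held for CRHR1 (0.13 and 0.20) and CRHBP (0.07 and 0.09). These are descriptions with no test, and both animals of number 1 lay below the other 4 in 1528 of all genes tested (11.6%), both of number 2 in 2057 (15.6%) and both of number 3 in 1107 (8.42%).

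Comparing animals of the same number, Rongchang minus wild boar, NR3C1 had log2 differences of 0.13, 0.36 and 0.24 for numbers 1, 2 and 3. SGK1 had −0.40, −0.36 and −0.26, and FKBP5 had −0.36, −0.16 and −0.20. CRHR1 had 0.08, 0.08 and 0.49. NR3C1 and CRHR1 were thus above 0 in all 3 pairs, as were 5062 of all genes tested (38.5%), and SGK1 and FKBP5 below 0 in all 3, as were 671 (5.1%). After median scaling NR3C1 and CRHR1 lay just below 0 for number 1, at −0.0056 and −0.0087, while SGK1 and FKBP5 stayed below 0 in all 3 pairs. With the animal number as a block, limma gave SGK1 an unadjusted p of 0.0101 (adjusted p = 0.232), FKBP5 0.0630 (0.308) and NR3C1 0.0761 (0.327). Under that block 1 of the 6 members had an unadjusted p under 0.05, where 2289 genes (17.4%) of the whole table did, and 0 members passed after adjustment. With the block and median scaling together, SGK1 had an unadjusted p of 0.00104 (adjusted p = 0.350 in limma), FKBP5 0.00995 (0.432) and NR3C1 0.446 (0.784), and 2 of the 6 members were under 0.05, against 1379 genes (10.5%).

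Other genes that glucocorticoids are known to induce were then read beside FKBP5. Of 25 listed, 12 had a row and 10 were tested. In limma 0 rose and 0 fell in Rongchang pigs, against 0.0076% of all genes called, and 0 had an unadjusted p under 0.05, against 6%. With the animal number as a block 2 of the 10, NFKBIA and PDK4, had an unadjusted p under 0.05 in limma (0.0169 and 0.0374), near the 17.4% of all genes, and 0 passed after adjustment. With the block and median scaling together, NFKBIA had a log2 difference of −0.50 (limma unadjusted p = 0.00153, adjusted p = 0.415). Under that setting 10.5% of all genes had an unadjusted p under 0.05. Of the 10, 3 had a difference above 0, against 77.9% of all genes, and 1 lay above the median gene. The list median was −0.07 against 0.13 over all genes. In the 5 gene lists read around the axis together, 33 of 50 genes tested lay above 0 and 14 above the median gene. Lying below the median gene was thus not particular to the induced genes. NFKBIA, the inhibitor that holds NF-kappaB in the cytoplasm, had the smallest p, at 8.97, 10.3 and 17.0 FPKM in Rongchang pigs against 11.5, 14.8 and 19.9 FPKM in wild boars (log2 difference −0.34, limma adjusted p = 0.856; −0.15 without wild boar 3, −0.17 without Rongchang pig 1, −0.52 without wild boar 1 and −0.60 without Rongchang pig 3). The clock gene PER1 stood at 18.9, 18.8 and 20.5 FPKM in Rongchang pigs, against 11.8, 21.4 and 16.8 FPKM in wild boars (0.25, limma adjusted p = 0.857; 0.034 without wild boar 1 and 0.44 without wild boar 2). Both genes overlapped between the breeds.

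The pattern of FKBP5 over the 6 libraries recurred in part of that list. By the root mean square difference between deviations from each gene's own mean, the 3 nearest of 8537 genes with a symbol were SLC14A1, ARRDC2 and PDK4, at 0.17, 0.18 and 0.18 log2 units, where the median gene lay at 0.58. ARRDC2 and PDK4 are also in the list of induced genes, which was chosen with earlier results of these data known. PDK4, the kinase that restrains pyruvate dehydrogenase, stood at 7.19, 23.3 and 26.2 FPKM in Rongchang pigs against 12.3, 26.4 and 30.1 FPKM in wild boars. The arrestin-domain gene ARRDC2 stood at 3.07, 6.57 and 8.27 FPKM in Rongchang pigs against 4.20, 7.97 and 7.65 FPKM in wild boars. The urea transporter SLC14A1 stood at 9.87, 30.7 and 27.1 FPKM in Rongchang pigs against 18.4, 31.2 and 26.9 FPKM in wild boars. All 3 were lowest in the animal numbered 1 of each breed, a description only, since they were chosen for their likeness to FKBP5.

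In all, 4 of the 10 induced genes tested lay lower in both animals numbered 1 than in the other 4, PDK4 and ARRDC2 together with the transcription factors KLF9 and ZBTB16, against 11.6% of all genes. PDK4 and ARRDC2 are those already chosen for their likeness to FKBP5. KLF9, ZBTB16, DUSP1, TIPARP, BCL6 and PHF21A were named after their values were seen. KLF9 stood at 19.7, 29.5 and 26.1 FPKM in Rongchang pigs against 17.2, 30.3 and 29.7 FPKM in wild boars. ZBTB16 stood at 5.70, 10.3 and 8.12 FPKM in Rongchang pigs against 5.14, 10.4 and 6.65 FPKM in wild boars. Averaged over the breeds, the animals numbered 1 had 0.368 of the FPKM of the other 4 for PDK4, 0.477 for ARRDC2, 0.611 for ZBTB16 and 0.638 for KLF9. The other induced genes were graded, with ratios of 0.660 for NFKBIA, 0.794 for PER1, 0.857 for BCL6 and 0.943 for PHF21A. The phosphatase gene DUSP1, at a ratio of 1.14, and TIPARP, at 0.993, did not share the low values, and SGK1 stood at 0.894.

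Markers of other cells moved with the animal number too. The neuronal sum was 1843 FPKM in Rongchang pig 1 and 1754 FPKM in wild boar 1, against 2303 to 2573 FPKM in the other 4 animals. The neocortical sum was 50.3 FPKM in Rongchang pig 1 and 44.6 FPKM in wild boar 1, below the other 4. The 4 oligodendrocyte markers matched summed to 1893 FPKM in Rongchang pig 1 and 2027 FPKM in wild boar 1, against 1230 to 1660 FPKM in the other 4, and mitochondrially encoded genes made up 45.2% and 46.8% of all FPKM in these 2 animals, against 30.03% to 43.6% in the other 4. In the animals numbered 2, where HSD11B1 was low, the 5 microglial markers matched summed to 62.0 FPKM in Rongchang pig 2 and 48.8 FPKM in wild boar 2, against 95.6 to 112 FPKM in the other 4. The astrocyte sum was also lowest there, at 1787 FPKM in Rongchang pig 2 and 1544 FPKM in wild boar 2, against 1873 to 1970 FPKM in the other 4. Its markers were not low together. GFAP, GJA1 and ALDOC were lowest in the animal numbered 2 of each breed. SLC1A2 was lowest in the animal numbered 3, at 129 FPKM in Rongchang pig 3 and 105 FPKM in wild boar 3. SLC1A3 was lowest in Rongchang pig 3 and wild boar 2, and ALDH1L1 in Rongchang pig 2 and wild boar 3. The part of cell makeup or mitochondrial share in the FKBP5 and HSD11B1 values was not tested.

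**Figure D3:**
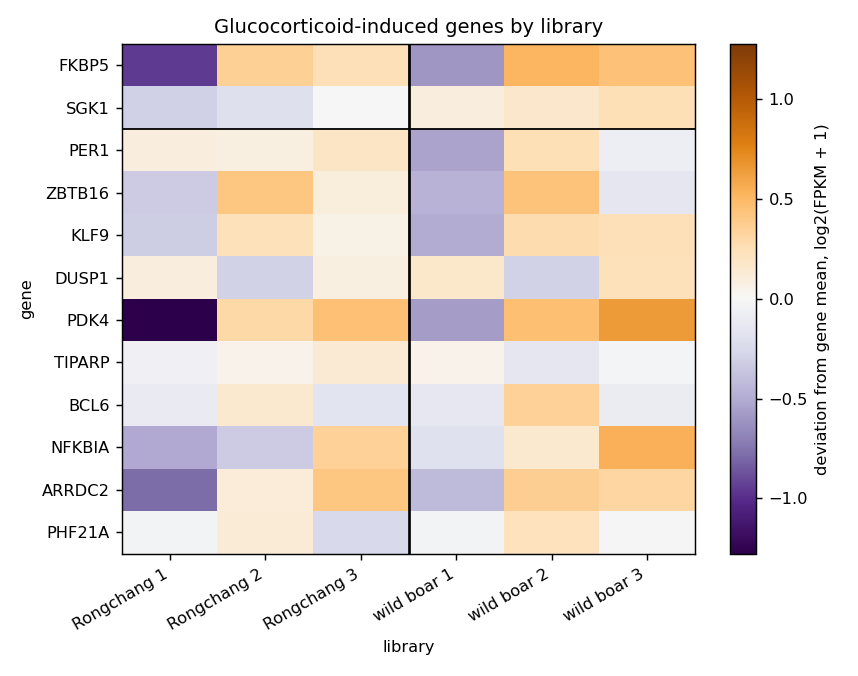
Deviation of each gene from its own mean over the 6 libraries, in log2(FPKM + 1), for FKBP5 and SGK1 (above the line) and the 10 other glucocorticoid-induced genes tested; columns are libraries, Rongchang left of the vertical line and wild boar right of it. FKBP5, PDK4, ARRDC2, KLF9 and ZBTB16 are low in both libraries numbered 1, while SGK1 is lower in each Rongchang library than in each wild boar library.

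SGK1 had other neighbours. The 3 genes nearest to it by the same measure were ZNF567, NAAA and ALOX5, at 0.055, 0.071 and 0.073 log2 units, where the median gene lay at 0.31. NAAA, which encodes a lysosomal amidase, stood at 2.79, 3.09 and 3.16 FPKM in Rongchang pigs against 3.81, 3.94 and 3.92 FPKM in wild boars. ALOX5, a lipoxygenase gene, stood at 2.41, 2.51 and 2.57 FPKM in Rongchang pigs against 3.14, 3.20 and 3.61 FPKM in wild boars. The zinc finger gene ZNF567 stood at 4.72, 5.40 and 5.85 FPKM in Rongchang pigs against 7.21, 7.36 and 7.37 FPKM in wild boars. All 3 were lower in every Rongchang pig than in every wild boar, a description only, since they were chosen for their likeness to SGK1.

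The proteins that fold and hold the receptor were then examined. Of 13 receptor chaperones and co-chaperones tested, 0 rose and 0 fell in limma, against 0.0076% of all genes called. At an unadjusted p under 0.05 in limma there were 0, against 6% of all genes. Of the 13, 11 lay above 0, against 77.9% of all genes, but 4 above the median gene, with a list median of 0.06. The phosphatase PPP5C, a co-chaperone of the receptor complex, stood at 25.2, 28.5 and 35.5 FPKM in Rongchang pigs against 20.8, 27.9 and 23.0 FPKM in wild boars (log2 difference 0.30, limma adjusted p = 0.814). The ubiquitin ligase STUB1, which acts on chaperone-bound proteins, stood at 59.9, 47.8 and 83.3 FPKM in Rongchang pigs against 54.4, 44.4 and 64.9 FPKM in wild boars (0.20, limma adjusted p = 0.880).

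Of 13 nuclear coregulators tested, 0 rose and 0 fell in limma, against 0.0076% of all genes called. At an unadjusted p under 0.05 in limma there were also 0, against 6% of all genes. Of the 13, 9 lay above 0, against 77.9% of all genes, and 3 above the median gene, and the list median was 0.02. The corepressor NRIP1 stood at 4.97, 7.49 and 3.55 FPKM in Rongchang pigs against 3.88, 5.19 and 3.52 FPKM in wild boars (log2 difference 0.25, limma adjusted p = 0.860; 0.017 without Rongchang pig 2, 0.16 without wild boar 3, 0.38 without wild boar 2 and 0.47 without Rongchang pig 3). The arginine methyltransferase CARM1 stood at 10.04, 11.6 and 10.4 FPKM in Rongchang pigs against 8.66, 10.6 and 9.78 FPKM in wild boars (0.13, limma adjusted p = 0.872, and −0.02 after median scaling). The ranges of both genes overlapped between the breeds.

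Among peptides of the axis, their processing enzymes and receptors, 10 of 21 listed had a row and 8 were tested. Of these, 0 rose and 0 fell in limma, against 0.0076% of all genes called, and 0 had an unadjusted p under 0.05, against 6%. The list median was 0.07, and 5 of the 8 lay above 0, against 77.9% of all genes, and 3 above the median gene. NPY1R, a receptor of neuropeptide Y, stood at 8.39, 8.55 and 10.2 FPKM in Rongchang pigs against 6.62, 6.52 and 8.89 FPKM in wild boars (log2 difference 0.28, limma adjusted p = 0.811). The prohormone convertase PCSK2 stood at 43.7, 61.1 and 55.6 FPKM in Rongchang pigs against 33.4, 57.4 and 38.1 FPKM in wild boars (0.33, limma adjusted p = 0.846). In both genes the Rongchang pig lay above the wild boar of the same number in all 3 pairs, as in 38.5% of all genes. With the animal number as a block, NPY1R and PCSK2 had unadjusted p under 0.05 in limma (0.0363 and 0.0252), as did 17.4% of all genes. After adjustment 0 of the 8 passed. With the block and median scaling together, NPY1R had an unadjusted p of 0.313 and PCSK2 of 0.125 in limma.

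Of the genes of steroid synthesis, transport and conversion, 12 of 20 listed had a row and 6 were tested. Of these, 0 rose and 0 fell in limma, against 0.0076% of all genes called, and 0 had an unadjusted p under 0.05, against 6%. The list median was 0.13, equal to that of all genes to 2 decimals. The cholesterol-transfer gene STARD3 stood at 7.97, 6.35 and 8.85 FPKM in Rongchang pigs against 5.52, 6.87 and 5.19 FPKM in wild boars (log2 difference 0.34, limma adjusted p = 0.789). The mitochondrial translocator gene TSPO stood at 4.99, 2.40 and 6.98 FPKM in Rongchang pigs against 3.91, 4.09 and 2.76 FPKM in wild boars (0.26, limma adjusted p = 0.874). The cholesterol side-chain cleavage enzyme CYP11A1, which starts steroid synthesis and was also named after its values were seen, did not exceed 0.124 FPKM in Rongchang pigs and 0.160 FPKM in wild boars.

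**Figure D4:**
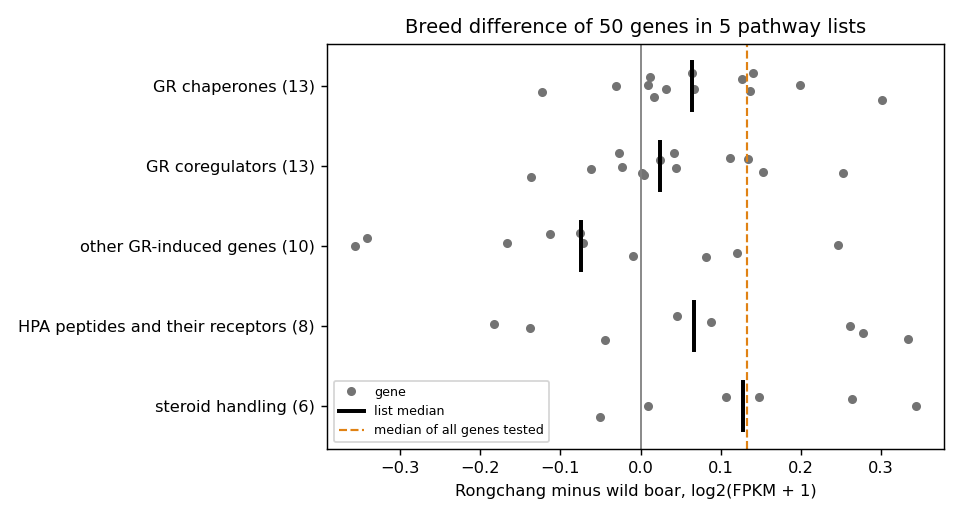
Rongchang minus wild boar in log2(FPKM + 1) for the 50 genes tested in 5 lists around the glucocorticoid receptor (GR) and the hypothalamic-pituitary-adrenal (HPA) axis; grey points are genes, black bars list medians, and the dashed line the median of all genes tested. The induced-gene list has its median at −0.07 and the other 4 lists between 0.02 and 0.13. Every list median lies at or below the dashed line.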

How the data were processed

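Brain poly(A) RNA of 3 Rongchang pigs and 3 wild boars was sequenced, 1 library per animal, with a strand-marking protocol and 100-bp paired reads per the labels' protocols. The authors deposited 1 FPKM value per gene and library. The file header names no unit. It was judged from the values and from the tools TopHat2 2.0.11, Cufflinks 2.2.1 and Cuffdiff, named without roles per the submitters' processing notes. Build, annotation, strand setting and scaling across libraries: not given in the sources used here. Without the strand setting, overlapping genes are uncertain. FPKM carries no read counts. Low values (under 0.15 FPKM) shared no common step, at most 23.7% of the ratios between 2 libraries lying within 0.04 log2 units of each other, so depth is unknown. Library sums were 568921 to 687359 FPKM. Of 18225 identifiers, 10937 (60.0%) matched a symbol, and the row with the highest mean was used per symbol.

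Breeds were compared with limma 3.58.1 in R 4.3.3 (mean-variance trend, two-sided) on log2(FPKM + 1), keeping the 13152 genes that reached 1 FPKM in 3 or more libraries, with Benjamini-Hochberg adjustment over all of them at 0.05. Nothing in the labels says that the animals are unrelated, and the p-values reflect only how these libraries vary. For the pairing check, each library's deviations from its breed mean were correlated with those of the same number in the other breed, at 0.28, 0.59 and 0.37 for numbers 1, 2 and 3. These exceed the bound of 0.1 set for pairing. The pairing comes from the data alone, and Rongchang pig 1 with wild boar 3 also reached 0.12. The members and lists were chosen with earlier results of these data known. The text names all members, the 2 genes of smallest unadjusted p per pathway list, and the 3 genes nearest in pattern to FKBP5 and SGK1 (the rule also listed TSC22D3, which had no row). Other genes named with values from this table are markers, or were chosen after their values were seen. Alternatives changed the pseudocount, filter, scaling, library weights, pairing and libraries.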

Additional observations from a re-analysis of the deposited data

How the results depend on the processing

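Under all 17 alternatives tried, 0 stress-axis members passed the adjusted threshold. The number of genes called in the whole table was 1, and it was 3 with a pseudocount of 0.1 FPKM, 0 with a minimum mean of 5 FPKM (405 at an unadjusted p under 0.05), 3 without both libraries numbered 2, 5 without both numbered 1 (an alternative chosen after seeing the data) and 1 to 4 when single libraries were left out. With the animal number as a replicate block it was 1 as well. Of the members, NR3C1, SGK1 and CRHR1 kept their direction in every alternative run, NR3C1 from 0.09 to 0.37, SGK1 from −0.51 to −0.27 and CRHR1 from 0.10 to 0.33 (CRHR1 lay under the minimum mean of 5 FPKM). SGK1 had an unadjusted p under 0.05 also with quantile normalization (0.00543), library weights (0.0132), scaling without mitochondrially encoded genes (0.0434), no filter (0.0401), a minimum mean of 5 FPKM (0.0431) and without Rongchang pig 3 (0.0313), each in limma. In that order, 494, 1518, 616, 1111 (of 18225), 405 (of 8088) and 594 genes overall were under 0.05. The smallest adjusted p of SGK1 among these was 0.361 in limma, with library weights. Its limma unadjusted p was 0.182 without Rongchang pig 1, 0.124 without Rongchang pig 2 and 0.157 without wild boar 3. It was 0.0751 without wild boar 1, 0.0803 without wild boar 2, 0.112 without both libraries numbered 2 and 0.212 without both numbered 1. FKBP5 ranged from −0.60 to 0.18, the value above 0 being without Rongchang pig 1 and the lowest without wild boar 1. Without both libraries numbered 1 it was −0.18. Median scaling, with or without the block, gave −0.14 for CRHBP, −0.0015 for HSD11B1 and −0.024 for CARM1. Quantile normalization gave −0.13 for CRHBP and −0.011 for CARM1, and scaling without mitochondrially encoded genes gave −0.0063 for CRHBP. Without both libraries numbered 1 CRHBP stood at −0.034. CRH had the other sign with library weights (0.052) and without both libraries numbered 2 (0.057). Leaving out single libraries gave ranges of −0.036 to 0.073 for CRHBP, −0.11 to 0.37 for HSD11B1, −0.011 to 0.38 for STUB1, −0.010 to 0.60 for TSPO and −0.175 to 0.087 for CRH; the cause was not tested. HSD11B2 was at 0.07, and at 0.53 with a pseudocount of 0.1 FPKM, which widens differences near 0. The low FKBP5 of the animals numbered 1 ranged from −1.35 to −0.99 log2 units and the low HSD11B1 of those numbered 2 from −0.87 to −0.58. Unknown depth limits what can be said of HSD11B2 and CRHR1.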
